A study of Mus musculus with 6 samples.

Results

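The regions described here are isolated KLF2 peaks in mouse large cavity macrophages (LCMs). They are stretches of chromatin called as bound by KLF2, with no other listed peak close by. They were chosen by their positions in the authors' list of anti-GFP peaks called against IgG. A peak on chromosomes 1 to 19 was taken when it was narrower than 600 bases and when the unlisted stretch to the neighbouring peak was at least 100 kb on each side, or on its only side for the first and last peak of a chromosome. Of the 6518 peaks on these chromosomes, 1266 met the rule (19.4%, 95% exact binomial interval 18.5 to 20.4%), out of 6602 peaks in the whole list. Together they covered 409 kb, or 408619 bases. Gap and width chose the peaks, so their values are given as a description and carry no test. The intervals here and below cover counting error only. They treat peaks as independent, although neighbouring peaks share a gap.

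The list comes from CUT&RUN, in which an antibody directs a micrococcal nuclease to its target so that DNA around bound sites is cut free and sequenced. LCMs were sorted from the peritoneal cavity of GFP-KLF2 knock-in mice, which make KLF2 from its own locus as a fusion with GFP at the N terminus. The study used male and female mice of 7 to 9 weeks. There were 3 samples of 600000 to 800000 LCMs, each divided between the anti-GFP antibody (clone 290) and rabbit IgG at 50 µg/ml, giving 3 libraries per antibody, and both arms carry the same knock-in allele. Anti-GFP signal was read against the IgG of the same knock-in cells, and cells without the GFP fusion were not analysed here. The labels state a depth of 3000000 to 5000000 paired ends.

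KLF2 is a Krüppel-like zinc finger transcription factor that binds GC-rich and CACCC-type DNA. It is known for its roles in endothelial cells, in T cell trafficking and in keeping myeloid cells quiescent. LCMs are the resident macrophages of the body cavities. Transcription factors of this kind bind both at promoters, where peaks of neighbouring genes can lie close together, and at distal enhancers, which can stand far from any other bound site. The list gives no gene names, signal, score or value per library, so the height of an isolated peak, its spread between the 3 samples and the depth behind it are unknown here. No genome or annotation of the list's build, GRCm39, was used here, so neither the sequence of these peaks nor the nearest gene is given. Whether KLF2 is bound at a given isolated peak was not tested beyond the authors' calling. A neighbouring site that was bound below the authors' threshold would not be listed, and a peak with such a neighbour would count as isolated.

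Of the 1266 isolated peaks, 749 had at least 200 kb to the nearer neighbour. The distance to the nearer neighbour had a median of 230 kb, with quartiles of 149 and 454 kb, and ran from 100.2 kb to 6309 kb. In 517 isolated peaks (40.8%) it was between 100 and 200 kb, in 454 (35.9%) between 200 and 500 kb, in 167 (13.2%) between 500 kb and 1 Mb, and in 128 (10.1%) it was 1 Mb or more. Over all peaks of the same chromosomes the median was 16.7 kb, with quartiles of 1.04 and 78.6 kb.

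**Figure D1:**
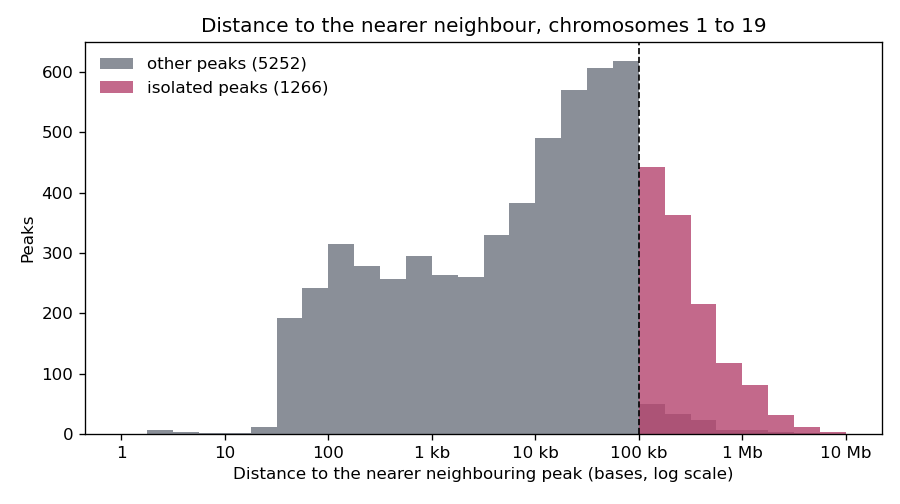
Number of peaks on chromosomes 1 to 19 by distance to the nearer neighbouring peak (bases, log scale), for the 1266 isolated peaks and the 5252 other peaks, drawn over each other; the dashed line marks 100 kb. The darker bars to the right of the line are the 126 peaks that are as far from others but at least 600 bases wide, and isolated peaks thin out towards 6309 kb.

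The gaps on either side of an isolated peak were mostly unequal. Among the 1250 isolated peaks with a neighbour on each side, the larger gap had a median of 804 kb and was 2.42 times the smaller one at the median, with quartiles of 1.48 and 5.56. In 326 of them (26.1%) the gaps differed by less than 1.5 times, whereas in 150 (12%) the larger was at least 10 times the smaller. Isolated peaks therefore include both sites in the middle of an unlisted stretch and sites near one end of it.

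The most solitary peaks, by the smaller of their gaps, were spread over many chromosomes. Among peaks with a neighbour on both sides, the farthest from any other was chr15:19875378-19875565 of GRCm39, a peak of 188 bases with 7.55 Mb to the peak before it and 5.97 Mb to the one after it. It was followed by chr1:143652379-143652800, which spanned 422 bases and lay 4.87 and 7.56 Mb from its neighbours. The next was chr16:71036023-71036255, with 233 bases and gaps of 5.65 and 4.63 Mb. These 3 peaks thus had at least 4.63 Mb without a listed peak on each side, while their widths covered both sides of the isolated median of 307.5 bases.

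Further peaks in this order were chr6:66935672-66935958 (287 bases, 9.26 and 3.9 Mb), chr15:42384431-42384596 (166 bases, 3.67 and 8.32 Mb) and chr3:15641324-15641767 (444 bases, 5.41 and 3.63 Mb). The 10 most solitary peaks of this kind also included chr1:97587337-97587900, at 564 bases the widest of them. The remaining members of this group were chr5:47601494-47601759, chr5:82811277-82811513 and chr4:66747724-66748160, with smaller gaps of 3.59, 3.51 and 3.42 Mb. The peak on chromosome 4 also bordered the largest gap beside any isolated peak, 15.7 Mb to the next peak. Across all 10, widths ran from 166 to 564 bases, so the most solitary peaks were neither all narrow nor all near the width limit.

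At the ends of chromosomes, 16 of the 38 first and last peaks were isolated, 9 of them first and 7 of them last. The largest gap among them belonged to chr17:95057220-95057372, a peak of 153 bases that lay 6.31 Mb beyond the one before it. The last peak of chromosome 18, chr18:90597448-90597813, lay 5.73 Mb beyond its neighbour, and the first peak of chromosome 9, chr9:3313745-3314089, lay 4.45 Mb before the next. By contrast, the first peak of chromosome 16, chr16:3062249-3062660, passed the limit narrowly with 101.4 kb. For these 16 peaks only 1 side could be examined, against both sides for the other 1250.

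Near the limits the choice turned on small differences. The closest pair inside the gap limit were chr14:62468836-62469336 and chr14:62569565-62569895, which are each other's neighbours at 100228 bases. Just outside it were chr18:36792559-36793040 and chr18:36892868-36893239, at 99827 bases from each other. The widest isolated peaks were chr6:30173292-30173890 and chr9:65122009-65122607, with 599 bases each, and the narrowest peak left out for its width alone was chr9:100916381-100916981, with 601 bases and a smaller gap of 391 kb.

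Isolated peaks were about as wide as narrow peaks in company. The isolated peaks spanned 307.5 bases at the median (quartiles 241 and 385). The median was 309 bases (quartiles 239 and 396) in the 2477 narrow peaks with a neighbour closer than 10 kb, and 310 bases (240 and 398) in the 2045 narrow peaks whose nearer neighbour was between 10 and 100 kb away. By chromosome, the median of the isolated peaks was above that of the other narrow peaks on 11 of 19 and below it on 8, and it ran from 267.5 bases on chromosome 17 to 332 bases on chromosome 9. The difference between these medians was therefore smaller than the spread between chromosomes.

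The narrowest isolated peak, which was also the narrowest peak of chromosomes 1 to 19, was chr19:60578051-60578169 with 119 bases. The next were chr9:45383629-45383768 with 140 bases, chr4:147420541-147420686 with 146 bases, chr10:93527652-93527798 with 147 bases and chr14:65830623-65830775 with 153 bases. Below 200 bases lay 113 isolated peaks (8.93%, 7.41 to 10.6%), against 9.49% (8.36 to 10.7%) of narrow peaks with a close neighbour and 8.26% (7.11 to 9.54%) of those in between. Below 400 bases lay 991 (78.3%, 75.9 to 80.5%), against 76% (74.3 to 77.7%) and 75.3% (73.3 to 77.1%). The 95% exact intervals cover counting error only and treat peaks as independent.

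**Figure D2:**
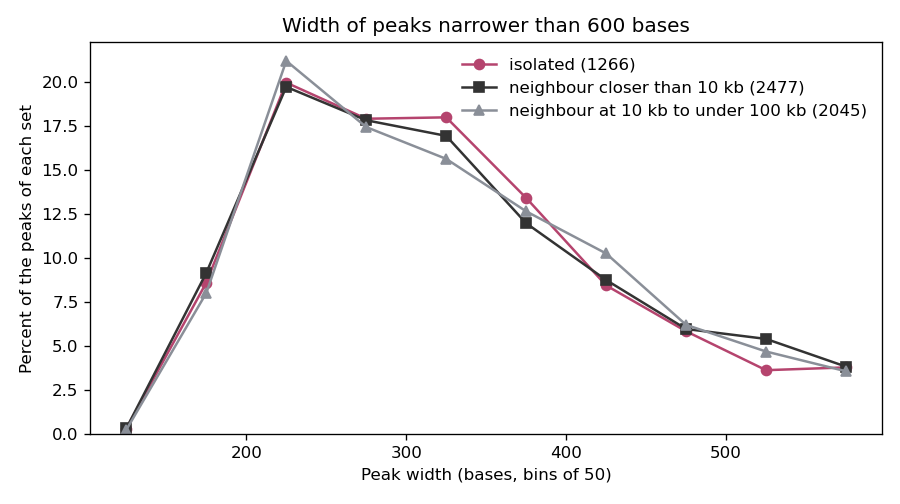
Percent of the peaks of each set by width (bases, in bins of 50) for the 1266 isolated peaks, the 2477 narrow peaks with a neighbour closer than 10 kb and the 2045 narrow peaks in between. The curves run close together, each highest between 200 and 250 bases, where the isolated peaks hold 20% of their number.

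Among isolated peaks, width showed little relation to distance. Spearman's rho between width and the smaller gap was -0.03 over the 1266 peaks, a description across peaks of 1 list, which are not replicates. Narrow peaks had a median width of 311 bases at 100 to 200 kb from others, 306.5 bases at 200 to 500 kb, 311 bases at 500 kb to 1 Mb and 300.5 bases at 1 Mb or more. The medians thus had no steady trend with distance.

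The width limit removed only a small share of solitary peaks. Of the 1392 peaks at least 100 kb from any other, 126 were 600 bases or wider (9.05%, 7.6 to 10.7%). In the 5126 peaks with a nearer neighbour the share was 11.8% (10.9 to 12.7%). By distance to the nearer neighbour, it was 12.3% under 500 bases, 13.2% at 500 bases to 10 kb, 11.1% at 10 to 50 kb and 9.04% at 50 to 100 kb. Beyond the limit it was 10.4% at 100 to 200 kb, 8.65% at 200 to 500 kb, 6.18% at 500 kb to 1 Mb and 8.57% at 1 Mb or more. Width and gap are the values the rule used, so these shares are a description with no test, and they do not locate a distance at which the share changes.

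Isolated peaks were found on all 19 autosomes. Their number ran from 41 on chromosome 19 to 101 on chromosome 2. Per 10 Mb of the span from the first to the last peak of a chromosome, there were 3.75 on chromosome 7, the lowest value, and 7.09 on chromosome 19, the highest, a ratio of 1.89. For the peaks that were not isolated the same measure ran from 8.93 on chromosome 18 to 44.8 on chromosome 19, a ratio of 5.02. Medians over the 19 chromosomes were 5.63 and 22.7 per 10 Mb. A minimum spacing of 100 kb limits how many peaks of a dense chromosome can be isolated and leaves the rest to the other peaks, so the smaller range of the isolated peaks is no separate finding.

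**Figure D3:**
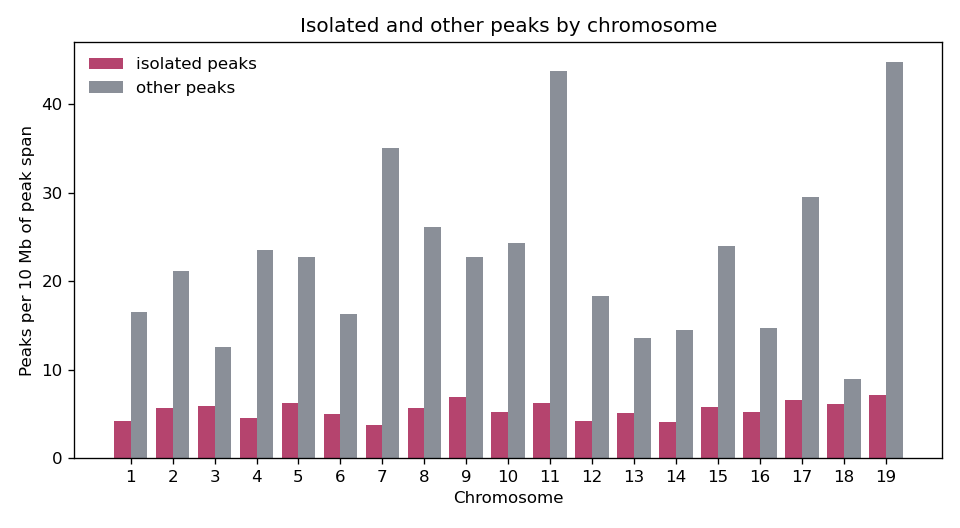
Isolated peaks and other peaks per 10 Mb of the span from first to last peak, by chromosome. The bars of the isolated peaks stay between 3.75 and 7.09, and those of the other peaks lie between 8.93 on chromosome 18 and 44.8 on chromosome 19.

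As a share of a chromosome's peaks, isolated peaks therefore differed 4.22-fold. They made up 40.8% of the peaks on chromosome 18 (53 of 130, 32.2 to 49.7%), 31.9% on chromosome 3 (89 of 279, 26.5 to 37.7%) and 27.5% on chromosome 13 (60 of 218, 21.7 to 34%). The lowest shares were 9.65% on chromosome 7 (53 of 549, 7.32 to 12.4%), 12.5% on chromosome 11 (74 of 594, 9.91 to 15.4%) and 13.7% on chromosome 19 (41 of 300, 9.99 to 18.1%). Chromosomes 7 and 18 thus carried the same number of isolated peaks, while the former carried over 4 times as many peaks in all. Part of this is built into the rule, since closer packing of peaks leaves fewer of them 100 kb apart. The intervals treat peaks as independent, although neighbouring peaks share a gap, so they do not test a difference between chromosomes.

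Gene content of a chromosome was set beside its isolated and its other peaks. Across the 19 autosomes, the density of protein-coding genes and that of peaks that were not isolated had a Pearson's r of 0.87 and a Spearman's rho of 0.84, with r = 0.83 without chromosomes 7 and 11, the farthest from the median gene density. With isolated peaks per 10 Mb, r was 0.25 and rho 0.33. Without the same chromosomes this r was 0.64, so its low value rested on them. The share of isolated peaks was lower on chromosomes with more genes per Mb (r = -0.7, rho = -0.69, and r = -0.56 without these 2 chromosomes). It was also lower on those with a higher GC content (r = -0.66, rho = -0.65, and r = -0.54 without the 2 farthest from the median). With the number of all peaks per Mb, the share had r = -0.76 and rho = -0.84. Closer packing of peaks leaves fewer of them 100 kb apart, so the relations of the share with genes and GC are no separate finding. The density of isolated peaks was lower on chromosomes with more repeat-masked sequence (r = -0.66, rho = -0.62, and r = -0.81 without the 2 farthest from the median). The density of peaks that were not isolated had the same sign (r = -0.49, rho = -0.32, and r = -0.24 without the same 2). For the share of isolated peaks, r with repeat-masked sequence was 0.15 and rho 0.09, and r was -0.2 without these 2. These relations are a selection from 16 computed. They are given as descriptions over chromosomes, which share libraries and threshold and are not replicates. Genes, GC and repeats were counted over whole chromosomes of GRCm38, without use of positions.

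Beyond the empty 100 kb that the rule demands, the mean density of peaks around isolated peaks was above that of the whole span, although single isolated peaks differed widely. Between 100 and 200 kb from an isolated peak there were 4.1 peaks per Mb, and between 200 and 500 kb there were 4.19, against a mean of 2.75 per Mb over the 19 spans. The density then fell to 3.85 between 500 kb and 1 Mb, 3.41 between 1 and 2 Mb, 3.12 between 2 and 5 Mb and 2.8 between 5 and 10 Mb. At 200 to 500 kb it was above the mean of the same chromosome on 19 of 19 chromosomes, from 1.16 times on chromosome 10 to 1.98 times on chromosome 12. At 100 to 200 kb this held on 17 of 19, with the lowest ratio, 0.87, on chromosome 9, and at 5 to 10 Mb on 7 of 19. The mean of the spans includes long empty stretches, with 67.9% of the length in gaps of 1 Mb or more. At 200 to 500 kb, the density was also above 2.75 per Mb around other narrow peaks (8.56). The same held around the 126 equally distant peaks of at least 600 bases (4.09). No feature of isolated peaks is therefore read from the excess over the mean.

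These means were raised by the isolated peaks with many others around them. Between 200 and 500 kb away, an isolated peak had a median of 1 other peak on both sides together, with quartiles of 0 and 3, and 395 of the 1266 (31.2%) had none. Between 100 kb and 1 Mb away, the median was 5, with quartiles of 2 and 10, and 128 had none. Around the 4522 other narrow peaks the median was 10, with quartiles of 5 and 19. The density at 200 to 500 kb was 8.56 per Mb around those peaks, so that around isolated peaks it was 0.49 times as high, and it was lower around isolated peaks on 19 of 19 chromosomes. The ratio rose with distance, from 0.37 at 100 to 200 kb through 0.66 at 1 to 2 Mb to 0.87 at 5 to 10 Mb, where isolated peaks had the lower density on only 10 of 19 chromosomes. In the means over other narrow peaks, each peak of a dense group is counted. Around the 126 wide solitary peaks the density at 200 to 500 kb was 4.09 per Mb, close to the 4.19 of the isolated ones. The rule demands an empty surrounding, so the lower density next to it is no separate finding.

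**Figure D4:**
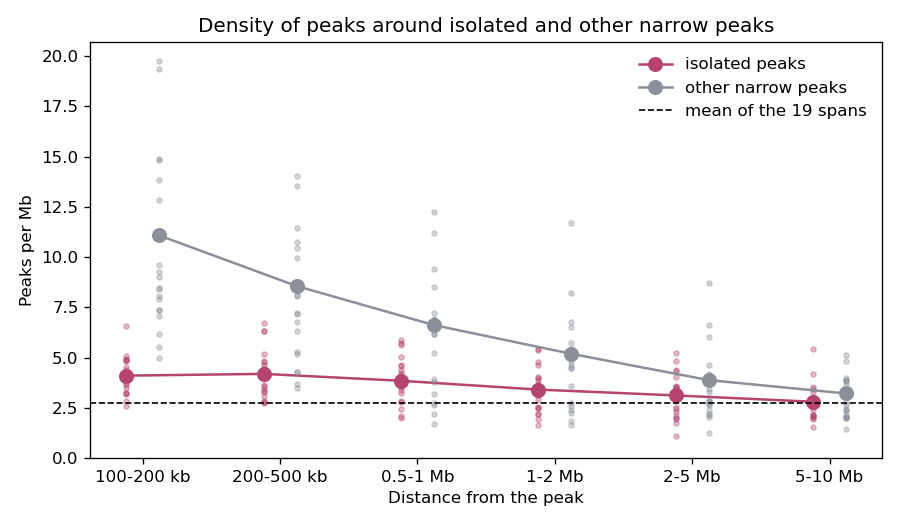
Peaks per Mb at increasing distance from the 1266 isolated peaks and from the 4522 other narrow peaks; large points are means over peaks, small points the 19 chromosomes, and the dashed line the mean of 2.75 per Mb. The isolated peaks start at 4.1 per Mb, above the dashed line and below the 11.1 per Mb of the other narrow peaks, and both approach the line with distance.

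Isolated peaks occurred along the whole length of the chromosomes. The span from first to last peak was divided into 10 equal parts, which held from 8.21% (the third) to 11.9% (the ninth) of the isolated peaks. The other peaks were heaviest in the last part, away from the centromere in mouse chromosomes, with 17.6% of their number against 11.1% of the isolated peaks. This difference was not shared by all chromosomes. The isolated peaks had the smaller share in the last part on 12 of 19, with 13% against 32.3% on chromosome 5 and 13.8% against 31.2% on chromosome 15, but 17% against 12.7% on chromosome 7. The spacing that the rule demands keeps isolated peaks from bunching where peaks are dense, so nothing is read from their more even placement.

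**Figure D5:**
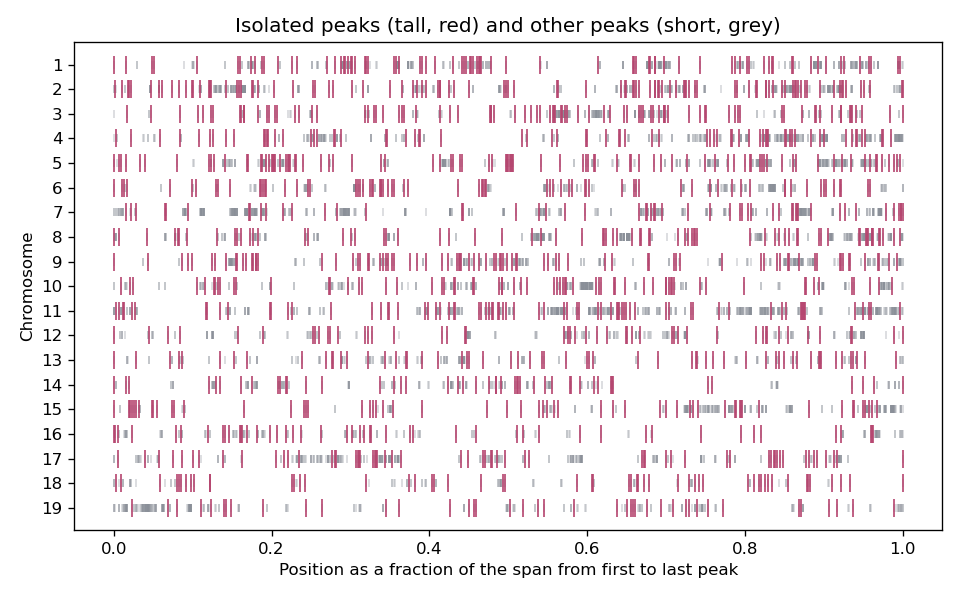
Position of each peak on chromosomes 1 to 19 as a fraction of the span from first to last peak, with the 1266 isolated peaks as tall red marks and the others as short grey marks. Isolated peaks occur along the whole span, and each of its 10 equal parts holds from 8.21 to 11.9% of their number, while the grey marks bunch.

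Of the 1266 isolated peaks, 946 had another isolated peak as a direct neighbour and 320 had none. Counted by side, 50.8% of the neighbours of isolated peaks (1278 of 2516) were isolated. Across gaps of at least 100 kb from peaks that were not isolated, 45% of the neighbours (1238 of 2750) were, and any neighbour across such a gap already has 1 of the empty sides that the rule demands. The isolated peaks formed 627 runs without any other peak in between, of which 157 held 2 peaks, 73 held 3 and 31 held 4. Runs of 5 or more numbered 46 and held 289 isolated peaks (22.8%). The longest held 10, and there were 2 of these, at chr4:19570193-34382213 over 14.8 Mb and at chr18:11222473-24087687 over 12.9 Mb.

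The run on chromosome 4 mixed wide and close spacing. Its first peaks, chr4:19570193-19570412 and chr4:21848074-21848424, were 2.28 Mb apart. The largest gap inside it, 5.89 Mb, lay between chr4:26346653-26346925 and chr4:32239410-32239723. After that gap came 4 peaks in a row at 322, 238 and 231 kb from each other. The 10 peaks were 177 to 378 bases wide, with a median of 286 bases.

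Other runs were compact. Chromosome 17 carried 7 isolated peaks within 1.66 Mb, at chr17:79453845-81108878, with widths of 181 to 345 bases and the smallest gap at 109.5 kb. On chromosome 9, 9 isolated peaks lay within 3.41 Mb at chr9:21982284-25393376, with a median width of 368 bases. Runs of similar number thus differed widely in length. These runs were chosen after their values were seen.

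The gaps beside isolated peaks can be set against all long gaps of the list, as a description, since the rule itself places a gap of at least 100 kb on each side of an isolated peak. The list left 2633 gaps of at least 100 kb between neighbouring peaks. Of these, 639 had an isolated peak at both ends, 1238 at 1 end and 756 at neither, so 71.3% touched at least 1. Their median lengths were 457, 345 and 251 kb in this order. The gaps that touched an isolated peak added up to 1789 Mb, or 75.4% of the 2371 Mb between first and last peaks. Of the 605 gaps of 1 Mb or more, 483 (79.8%) touched an isolated peak. The peaks across these gaps from an isolated peak had a median width of 324 bases, and 9.9% (8.76 to 11.1%) were 600 bases or wider over the 2516 sides examined. Across gaps of at least 100 kb from peaks that were not isolated, these values were 321 bases and 9.2% (8.15 to 10.3%) over 2750 sides. A peak could be counted on more than 1 side.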

How the data were processed

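CUT&RUN was carried out with anti-GFP or IgG on LCMs of GFP-KLF2 mice. Per the labels, the submitters' processing notes name Trim Galore 0.6.7, Bowtie2 2.4.2 and SEACR 1.3. The authors aligned reads to GRCm39, scaled libraries by E. coli spike-in reads and called peaks with SEACR against merged controls, reporting the top 1% of peaks. The list has no score, so whether it is exactly that share could not be checked. How the 3 anti-GFP libraries were combined is not given in the sources used here. The deposited list holds the start and end of each peak in bases and no other measurement, and 0 columns of values per sample were left unused. Peaks on chromosomes 8, 13 and 17 end beyond the GRCm38 lengths, so the list was read as GRCm39, although the labels name both builds. The genome used here is of GRCm38. Coordinates were not converted, and the planned gene, motif, GC and repeat values of peaks were not computed. Whole-chromosome totals of GRCm38.p6 were taken from RefSeq. Gaps, runs and densities were computed with Python 3.11.15, NumPy 2.4.6, pandas 2.3.3 and SciPy 1.17.1. The rule for isolated peaks, the densities and the merging of close peaks were tested on simulated data, and the runs were not. Positions are printed counting from 1. Distances in densities were taken between midpoints, within the span from first to last peak. The peaks and lists were chosen with earlier results of these data known. Named peaks were the 10 with the largest smaller gap, the 10 widest, the 5 narrowest and those at the thresholds, of which the text gives those it uses. The peaks with neighbours on both sides and the runs were chosen after their values were seen. No gene could be named. Alternatives were other limits of gap and width, chromosome ends left out and close peaks merged.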

Additional observations from a re-analysis of the deposited data

Results flagged for a closer look

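The X chromosome lies outside the comparisons above, and peaks there stand above IgG by the authors' own calling. Under the same limits, 24 of its 65 peaks were isolated (36.9%, 95% exact interval 25.3 to 49.8%), with a median width of 305 bases. That is 1.48 isolated peaks per 10 Mb, against 3.75 to 7.09 on the autosomes. All peaks were sparse there, with 0.402 per Mb against 2.75 per Mb over the autosomal spans. Sparser peaks leave more of them 100 kb apart, so the higher share is no separate finding. In GRCm38 the X chromosome is 46.8% repeat-masked, against 30.6% on chromosome 11 to 35.8% on chromosome 3. The study used mice of both sexes, and counts on X were not adjusted for this. Whether either bears on the sparse peaks was not tested. The distance to the nearer neighbour had a median of 1980 kb, against 230 kb on the autosomes.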

How the results depend on the processing

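The number of isolated peaks depended on the gap limit. It rose from 1266 to 1940 with a gap of 50 kb and fell to 749 with a gap of 200 kb. It stayed within 1.5 times under the other 4 alternatives, from 991 with widths under 400 bases to 1392 with no width limit. The other 2 results were put to the same 6 alternatives after the data had been seen. Peak density at 200 to 500 kb from isolated peaks was 1.52 times the mean of the spans (1.07 to 1.97, 1 SD over chromosomes to each side) and ran from 1.15 times with a gap of 200 kb to 1.85 times with a gap of 50 kb. With a gap of 200 kb the range of 1 SD to each side was 0.8 to 1.5 and included 1. For the SD, the density on each chromosome was divided by the mean of all spans. The range therefore also holds differences in peak density between chromosomes, and it cannot decide whether the excess holds. The highest over the lowest density of isolated peaks per chromosome was 1.89 and ran from 1.82 to 2.11. No paired analysis was possible because no per-library values were at hand, and leaving out a replicate could not be done for the same reason. Alternatives for promoters, gene bodies, distance to gene starts, motifs, GC content and repeats were not run. The depth at each site is unknown, so the emptiness of a gap holds only for peaks above the authors' threshold.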

Other observations

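The list also held 3 peaks on the Y chromosome and 16 on unplaced scaffolds, which entered none of the counts of isolated peaks.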
